A study of Homo sapiens with 9 samples.

Results

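The genes described are 10 feedback restraints of the MAP kinase pathway: the MAP kinase phosphatase genes DUSP1, DUSP4, DUSP5, DUSP6 and DUSP10, the Sprouty genes SPRY1, SPRY2 and SPRY4, the Sprouty relative SPRED1, and PHLDA1. They were picked by name, 10 of the 16180 genes tested, and are measured by 18 probes, all of which lay above the filter on dim probes. DUSP5 was set apart from the other 9 because of its levels in the same groups, so the members' differences between groups are given as a description, with no p. RNA of MKN45 cells, a gastric cancer line, was measured on 9 single-colour Illumina bead arrays, with 3 arrays per group. Per the labels, the first group carries the YAP-S127A vector, the second a control vector, and the third is called mock. S127A names the exchange of a serine of YAP1 for alanine. All groups share the cell line. The labels used here do not give the promoter, the way the vectors were delivered, the time after delivery or whether cells came from 1 clone or separate cultures, so the p-values below measure the spread between arrays, which may be technical.

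Growth factor receptors signal through RAS, RAF and MEK to the kinase ERK, which in turn induces genes that restrain the same pathway. The MAP kinase phosphatases remove phosphate from the kinases: DUSP5 acts on ERK in the nucleus, DUSP6 acts on ERK in the cytoplasm, DUSP1 and DUSP4 act in the nucleus on several MAP kinases, and DUSP10 acts mainly on p38 and JNK. Sprouty and SPRED proteins act further up, between the receptor and RAF, and levels of DUSP6, SPRY2 and SPRY4 are widely read as a sign of ERK activity. YAP1 is a coactivator of TEAD transcription factors, and the serine replaced in YAP-S127A is one through which Hippo pathway kinases hold it in the cytoplasm. MKN45 cells are known for amplification of the receptor gene MET.

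The median probe signal was 107 to 136 intensity units on the 9 arrays, and values below are normalized log2 intensities unless raw signal is named. Mock array 1 stood apart, with a score of 17.9 on the second principal component against −9.94 to 3.15 on the others. The single YAP1 probe was dim, at the 12.3 percentile of all probes, and averaged 6.12 ± 0.06 on YAP-S127A, 6.04 ± 0.09 on vector and 6.08 ± 0.09 on mock arrays (SD, n = 3 each), so it does not check the labels. The YAP targets CCN1 and CCN2 rose against vector by 2.34 ± 0.11 and 1.08 ± 0.11 (SE). All 9 epithelial and gastric markers, among them EPCAM, CDH1 and KRT19, lay between the 80.9 and 99.3 percentile of all probes. In YAP-S127A against vector 4 of them fell (TFF1, CLDN18, LGALS4 and ANXA10) and 2 rose (KRT8 and KRT18). Of 7 mesenchymal markers 5 passed the filter, with a mean level of 6.85 to 6.95 on YAP-S127A, 6.67 to 6.73 on vector and 6.61 to 6.76 on mock arrays, and THY1 and PDGFRB lay below it. Of 7 blood and endothelial markers 4 passed, with a mean level of 6.79 to 7.02 on YAP-S127A, 6.84 to 6.91 on vector and 6.31 to 6.51 on mock arrays. Their gap to mock came from HBB, at 8.80 ± 0.05 on YAP-S127A, 8.58 ± 0.29 on vector and 6.43 ± 0.11 on mock arrays (SD, n = 3 each), while CD3E and VWF lay below the filter. The part of these markers in the results below was not tested.

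DUSP5 was higher on the YAP-S127A arrays than on every control array. Its level was 8.65, 8.40 and 8.60 on YAP-S127A arrays 1 to 3, against 7.64, 7.58 and 7.60 on the vector arrays and 7.58, 7.52 and 7.73 on the mock arrays. The lowest YAP-S127A array lay above the highest control array, and both control groups overlapped. The difference was 0.94 ± 0.10 (log2, SE) from vector and 0.94 ± 0.10 from mock, that is 1.92-fold and 1.91-fold, while vector and mock differed by −0.00 ± 0.10. In raw signal the same probe read 435, 381 and 353 units on YAP-S127A arrays, against 275, 199 and 243 on vector and 231, 245 and 274 on mock arrays, so the separation stands before any normalization. In order of level YAP-S127A came first, and vector and mock did not differ beyond their spread. In these bulk samples, a change in the share of cells that express a gene and a change in RNA per cell cannot be told apart. The array has 1 probe for DUSP5, so no second probe bears on this level.

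**Figure D1:**
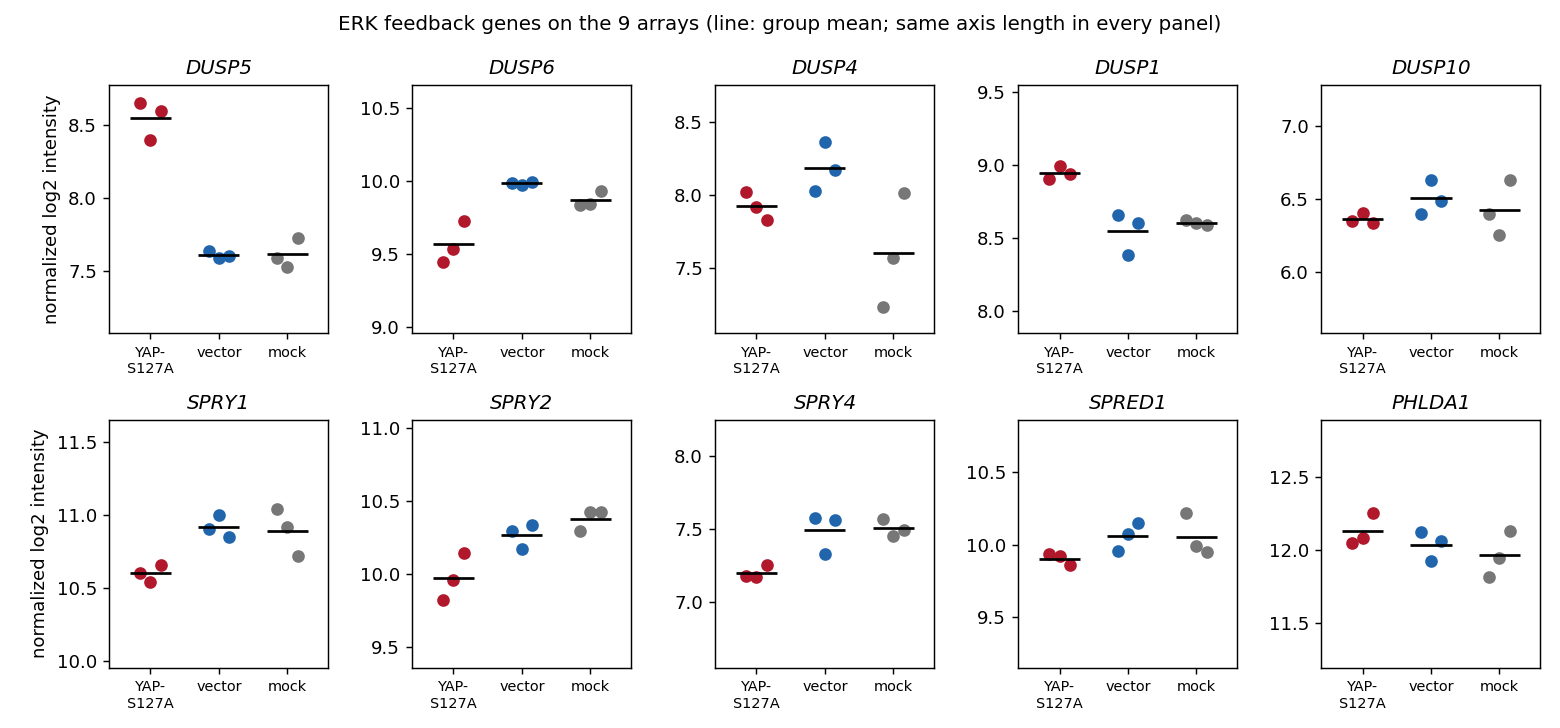
Normalized log2 intensity (vertical axis) of the brightest probe of each of the 10 feedback genes on the 3 YAP-S127A, 3 vector and 3 mock arrays (points), with the group mean as a line. DUSP5 and DUSP1 lie higher on all YAP-S127A arrays than on the 6 control arrays, and DUSP6, SPRY1, SPRY2, SPRY4 and SPRED1 lie lower on all of them.

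DUSP6, the cytoplasmic ERK phosphatase and the nearest counterpart of DUSP5 in its choice of kinase, went the other way. Its brighter probe read 9.45, 9.54 and 9.73 on YAP-S127A arrays, against 9.99, 9.98 and 9.99 on vector and 9.83, 9.84 and 9.93 on mock arrays. All YAP-S127A arrays lay below all control arrays, although YAP-S127A array 3 came within 0.11 of the nearest of them. The difference was −0.42 ± 0.10 (log2, SE) from vector and −0.30 ± 0.10 from mock. A dimmer second probe gave −0.34 and −0.33, with 6.95, 7.02 and 6.998 on YAP-S127A arrays, against 7.10, 7.58 and 7.31 on vector and 7.17, 7.41 and 7.38 on mock arrays. Both probes thus placed the YAP-S127A arrays below all controls. The vector arrays lay above the mock arrays on the brighter probe, by 0.12 ± 0.10, and overlapped them on the other.

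DUSP1, a nuclear phosphatase of p38, JNK and ERK that is induced by stress as well as by growth factors, was the other member above all controls, with a smaller gap than DUSP5. It read 8.90, 8.99 and 8.93 on YAP-S127A arrays, against 8.65, 8.38 and 8.60 on vector and 8.62, 8.60 and 8.59 on mock arrays. The difference was 0.40 ± 0.10 from vector and 0.34 ± 0.10 from mock (log2, SE), or 1.32-fold and 1.27-fold. Vector and mock overlapped. Vector array 2 was the lowest of the controls, and without it the difference from vector was 0.32.

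DUSP4, a nuclear phosphatase of ERK and JNK, followed no common order against the controls. It read 8.02, 7.92 and 7.83 on YAP-S127A arrays, against 8.03, 8.36 and 8.17 on vector and 7.23, 7.57 and 8.02 on mock arrays. YAP-S127A differed from vector by −0.26 ± 0.14 and from mock by 0.32 ± 0.14 (log2, SE), and overlapped the mock arrays. Its largest gap was between the controls: vector lay above mock by 0.58 ± 0.14, with 0.01 between the nearest arrays. The mock arrays were widely spread (SD 0.39), and without mock array 1 the difference of vector from mock was 0.40, and without mock array 3 it was 0.79. YAP-S127A against mock was 0.13 without mock array 1 and 0.53 without mock array 3. The dimmer DUSP4 probe, at the 32.6 percentile of all probes, ranged from 6.13 to 6.39 on YAP-S127A, 6.26 to 6.36 on vector and 6.08 to 6.19 on mock arrays. With the mean of both probes the DUSP4 difference was −0.16 from vector and 0.20 from mock.

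DUSP10, the phosphatase of p38 and JNK, had a dim probe, at the 56.4 percentile. It read 6.35, 6.41 and 6.33 on YAP-S127A arrays, against 6.40, 6.64 and 6.49 on vector and 6.40, 6.26 and 6.63 on mock arrays. The groups overlapped, with differences of −0.14 ± 0.11 from vector and −0.06 ± 0.11 from mock (log2, SE). No difference was detectable at this signal.

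The Sprouty genes lay below the controls together. SPRY1, whose protein blocks growth factor signals to RAS, read 10.60, 10.54 and 10.66 on YAP-S127A arrays, against 10.91, 10.998 and 10.85 on vector and 11.04, 10.92 and 10.72 on mock arrays. All YAP-S127A arrays were lower than all controls, by 0.06 at the nearest pair, and the means differed by −0.32 ± 0.11 from vector and −0.29 ± 0.11 from mock (log2, SE). A further probe showed the same separation, with 9.10 on each YAP-S127A array against 9.47, 9.29 and 9.33 on vector and 9.29, 9.45 and 9.44 on mock arrays. The third SPRY1 probe was dim (51.8 percentile), overlapped between groups and differed by 0.08 from vector and −0.04 from mock. With the mean of its probes the SPRY1 difference was −0.17 from vector and −0.21 from mock.

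SPRY2, which also binds the ubiquitin ligase CBL, read 9.82, 9.96 and 10.14 on YAP-S127A arrays, against 10.29, 10.17 and 10.33 on vector and 10.29, 10.42 and 10.42 on mock arrays. The groups did not overlap, but YAP-S127A array 3 and vector array 2 lay only 0.03 apart. The differences were −0.29 ± 0.11 from vector and −0.41 ± 0.11 from mock (log2, SE). SPRY4 read 7.18, 7.17 and 7.25 on YAP-S127A arrays, against 7.58, 7.33 and 7.56 on vector and 7.57, 7.45 and 7.49 on mock arrays, again with no overlap. Its differences were −0.29 ± 0.10 and −0.30 ± 0.10. The other 3 SPRY4 probes were dim (31.6 to 48.6 percentile), and their differences ran from −0.08 to 0.05 against vector and from −0.19 to 0.06 against mock, so with the mean of all its probes the SPRY4 difference was −0.09 from vector and −0.15 from mock.

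SPRED1, which brings the RAS inactivator neurofibromin to the membrane, was lower on YAP-S127A arrays by a smaller amount. It read 9.93, 9.92 and 9.86 on YAP-S127A arrays, against 9.96, 10.07 and 10.15 on vector and 10.22, 9.99 and 9.95 on mock arrays. The groups did not overlap, yet the gap to the nearest control was 0.01, and the differences were −0.16 ± 0.10 from vector and −0.15 ± 0.10 from mock (log2, SE). Without mock array 1 the difference from mock was −0.07. PHLDA1, a protein with a pleckstrin-homology domain that ERK signalling induces, overlapped between all groups. It read 12.05, 12.08 and 12.25 on YAP-S127A arrays, against 12.13, 11.92 and 12.06 on vector and 11.81, 11.95 and 12.13 on mock arrays, with differences of 0.09 ± 0.11 and 0.16 ± 0.11. Its second probe differed by 0.03 from both controls.

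**Figure D2:**
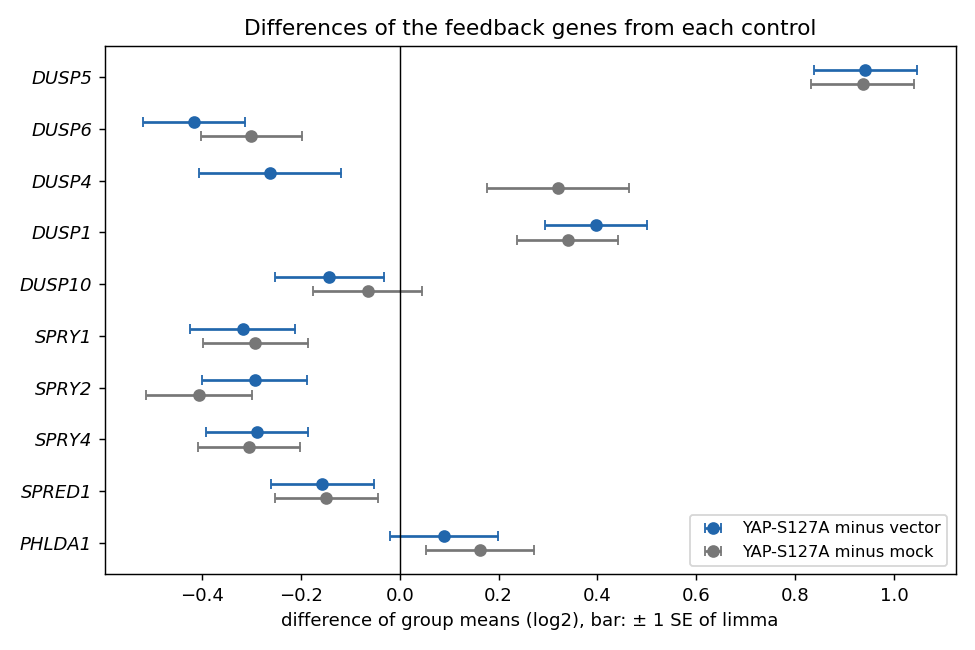
Difference of group means (log2, horizontal axis) for each feedback gene, YAP-S127A minus vector and YAP-S127A minus mock, with bars of 1 SE of limma on each side. DUSP5 stands at 0.94 in both, DUSP1 at 0.40 and 0.34, and the 3 Sprouty genes between −0.41 and −0.29. DUSP4 changes side between the controls.

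Seen as a group, the 9 feedback genes other than DUSP5 had a median difference of −0.26 from vector and −0.15 from mock, where the median of all 16180 genes tested was −0.01 and −0.00 (log2). They ran from −0.42 to 0.40 against vector and from −0.41 to 0.34 against mock, and DUSP5 at 0.94 lay outside their range in both. These comparisons share the YAP-S127A arrays. As DUSP5 was set apart by its levels in these groups, nothing is read from its place outside the range or from the median of the rest. Of the 10 members, 2 lay above all 6 controls on every YAP-S127A array and 5 lay below, where 5.62% and 5.64% of all genes tested did so. Against the vector arrays alone 2 lay above and 6 below (10.6% and 12% of all genes), against the mock arrays alone 2 above and 5 below (10.3% and 10.1%), and the vector arrays lay above all mock arrays for 2 members and below for 0 (5.61% and 4.52%). In raw signal the brightest probes of DUSP5, DUSP6 and SPRY1 kept the YAP-S127A arrays apart from all controls. Those of DUSP1, SPRY2, SPRY4 and SPRED1 overlapped the vector arrays before normalization. The threshold was a Benjamini-Hochberg adjusted p under 0.05 in limma over all genes tested. Against vector 3 members passed, 2 above and 1 below (3.45% of all genes passed). Against mock 2 passed, 1 above and 1 below (4.25% of all genes). Between vector and mock 0 passed (0.0124% of all genes). In both YAP-S127A comparisons 1 member passed above and 0 below (1.34% and 1.03% of all genes). As the rule that set DUSP5 apart used these contrasts, the counts are no test of the members and nothing is read from them. Without vector array 2 or 3 or YAP-S127A array 1 or 2, the count against vector was 1. The count against mock was 1 without mock array 2 or YAP-S127A array 1 or 2, and 3 without mock array 3. With arrays scaled to equal medians instead, 38.5% of all calls against vector and 31.3% against mock were higher, where 50.8% and 51.2% were with quantile normalization, and 1 member passed in each comparison. The signs of all 10 differences from vector held under all 18 alternatives, as did those of 9 from mock. The exception was DUSP10, at 0.04 without mock array 3.

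**Figure D3:**
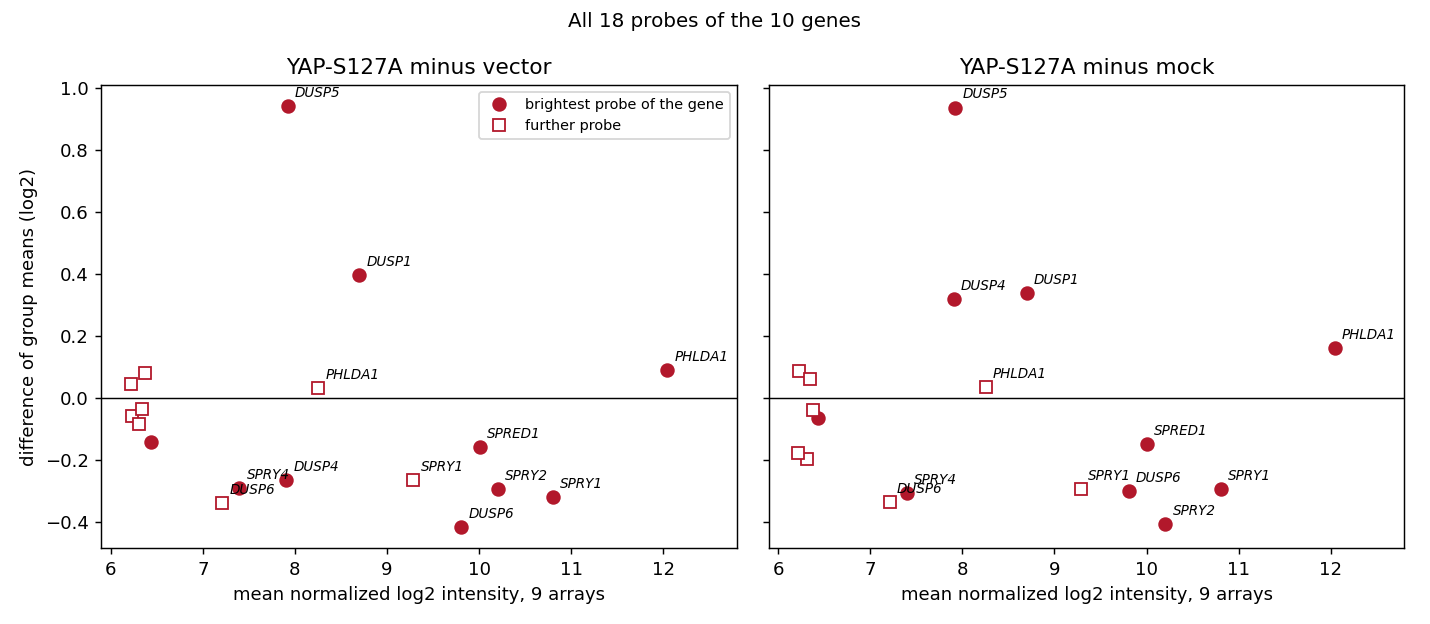
Difference of group means (log2, vertical axis) against the mean normalized log2 intensity over the 9 arrays (horizontal axis) for all 18 probes, with the brightest probe of a gene filled and further probes open. Both DUSP6 probes and the 2 brighter SPRY1 probes lie between −0.42 and −0.26, and the dim probes, with means under 6.5, lie between −0.19 and 0.09.

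The start regions of the genes differ in sequence. Of the 10 genes 8 had an entry in the RefSeq promoter table (build GRCh38.p14). DUSP4 and DUSP5 had none, so the start region of DUSP5 was not searched. The 250 bases before the start are shown for DUSP1, which lay above the controls, and for DUSP6 and SPRY2, which lay below. The stretches are from members with opposite differences, and a link between their sequences and these differences was not tested. Capitals mark matches, on either strand, to the cAMP response element TGACGTCA, the AP-1 site TGANTCA, the ETS core CCGGAA, the TEAD site GGAATG and the CArG box of serum response factor, none of whose patterns includes another. They lie at chr5:172771196-172771445, minus strand (DUSP1), chr12:89352502-89352751, minus strand (DUSP6) and chr13:80341127-80341376, minus strand (SPRY2), printed 5′ to 3′ along the gene.
DUSP1: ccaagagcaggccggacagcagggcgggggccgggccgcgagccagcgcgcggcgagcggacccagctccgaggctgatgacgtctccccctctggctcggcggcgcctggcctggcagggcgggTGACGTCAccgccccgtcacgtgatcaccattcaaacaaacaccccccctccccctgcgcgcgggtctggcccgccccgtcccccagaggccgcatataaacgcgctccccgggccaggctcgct
DUSP6: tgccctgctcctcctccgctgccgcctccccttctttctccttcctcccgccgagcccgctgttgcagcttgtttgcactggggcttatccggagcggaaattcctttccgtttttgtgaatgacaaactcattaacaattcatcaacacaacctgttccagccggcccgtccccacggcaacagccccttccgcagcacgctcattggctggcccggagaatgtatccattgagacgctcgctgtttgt
SPRY2: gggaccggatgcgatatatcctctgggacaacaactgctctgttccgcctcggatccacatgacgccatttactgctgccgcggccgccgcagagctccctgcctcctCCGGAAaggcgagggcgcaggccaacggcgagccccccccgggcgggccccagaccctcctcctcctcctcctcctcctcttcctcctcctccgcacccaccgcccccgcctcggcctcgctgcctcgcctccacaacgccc
DUSP1 was the single member of the 8 with the cAMP response element, 125 to 118 bases before its start, a sequence found in 1.77% of 27305 promoters of this length. SPRY2 (142 to 137 bases before its start) and PHLDA1 held the ETS core, which 14.8% of all promoters hold. The TEAD site (11.9% of all promoters), the AP-1 site (6.6%) and the CArG box (1.14%) were found in 0 of the 8, which do not include DUSP5. The GC box GGGCGG was found in 6 of the 8 and in 42.3% of all promoters. DUSP6 and SPRY1 held none of these 6 patterns in this window. The G and C share was 74.4% in DUSP1, 70.4% in SPRY2, 57.2% in DUSP6 and 45.6% in SPRY1, where the median of all promoters was 58.0%.

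Of 27 other ERK-induced genes tested, 6 rose and 0 fell against vector (1.76% and 1.7% of all genes). Against mock 4 rose and 2 fell (2.18% and 2.07% of all genes). The median difference was 0.02 and −0.01 (log2). This list and those below were chosen with earlier results of these data known, so no excess is read from their counts. FOSL1, an AP-1 subunit, read 8.25, 8.28 and 8.15 on YAP-S127A arrays, against 7.54, 7.33 and 7.51 on vector and 7.23, 7.14 and 7.55 on mock arrays. It rose by 0.77 ± 0.11 against vector and 0.92 ± 0.11 against mock (limma, adjusted p = 0.000151 and 1.16e-05). EPHA2, an ephrin receptor, read 9.35, 9.07 and 9.05 on YAP-S127A arrays, against 8.70, 8.47 and 8.41 on vector and 8.26, 8.27 and 8.47 on mock arrays. It rose by 0.63 ± 0.11 and 0.82 ± 0.11 (limma, adjusted p = 0.00147 and 5.56e-05). Every YAP-S127A array exceeded the 6 control arrays in both genes, as in DUSP5.

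MYC, a growth-promoting transcription factor, rose by 0.57 ± 0.12 against vector and 0.63 ± 0.12 against mock (limma, adjusted p = 0.00801 and 0.00325), and its second probe differed by 0.78 and 1.06. The immediate early factor EGR1 rose by 0.59 ± 0.12 and 0.45 ± 0.12 (limma, adjusted p = 0.00444 and 0.0299). The call of MYC against vector ended without YAP-S127A array 1 (adjusted p = 0.0761) or 2 (0.0635) and after scaling to equal medians (0.0745). That of EGR1 against mock ended without mock array 2 (0.149) or YAP-S127A arrays 1 (0.147) or 2 (0.144), after scaling to equal medians (0.158) and with only the groups compared (0.0564). Chosen after their values were seen, ATF3 (0.68 ± 0.14) and UPP1 (0.46 ± 0.11) rose against vector, and the ETS factor ETV5 changed by −0.39 ± 0.10 and the urokinase receptor PLAUR by −0.45 ± 0.11 against mock. None of them passed in the other comparison. ATF3 differed by 0.28 and UPP1 by 0.29 from mock (limma, adjusted p = 0.31 and 0.141). From vector, ETV5 differed by −0.30 and PLAUR by −0.27 (limma, adjusted p = 0.131 and 0.206). ETV5 is read beside DUSP6 and SPRY4 as a sign of ERK output. However, FOSL1, MYC and EGR1 of the same list rose, and ERK activity itself was not measured. ETV5 lay below all controls on every YAP-S127A array, at 9.27, 9.18 and 9.16. The vector arrays read 9.40, 9.45 and 9.65 and the mock arrays 9.63, 9.64 and 9.51. ETV4, also among the ERK-induced genes, overlapped the controls, with differences of −0.21 ± 0.13 from vector and −0.28 ± 0.13 from mock. The ETV5 call against mock ended without any of the mock arrays 1 and 2 or YAP-S127A arrays 1 to 3 (adjusted p up to 0.122), and after scaling to equal medians (0.0509). That of ATF3 ended without vector array 2 (0.0513). That of UPP1 ended without vector arrays 1 or 2 or YAP-S127A arrays 1 or 3 (up to 0.0823), after scaling to equal medians (0.141), and with the mean of its probes (0.24, adjusted p = 0.213). That of PLAUR ended without mock array 3 or YAP-S127A arrays 1 or 2 (up to 0.114) and with the mean of its probes (0.05).

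**Figure D4:**
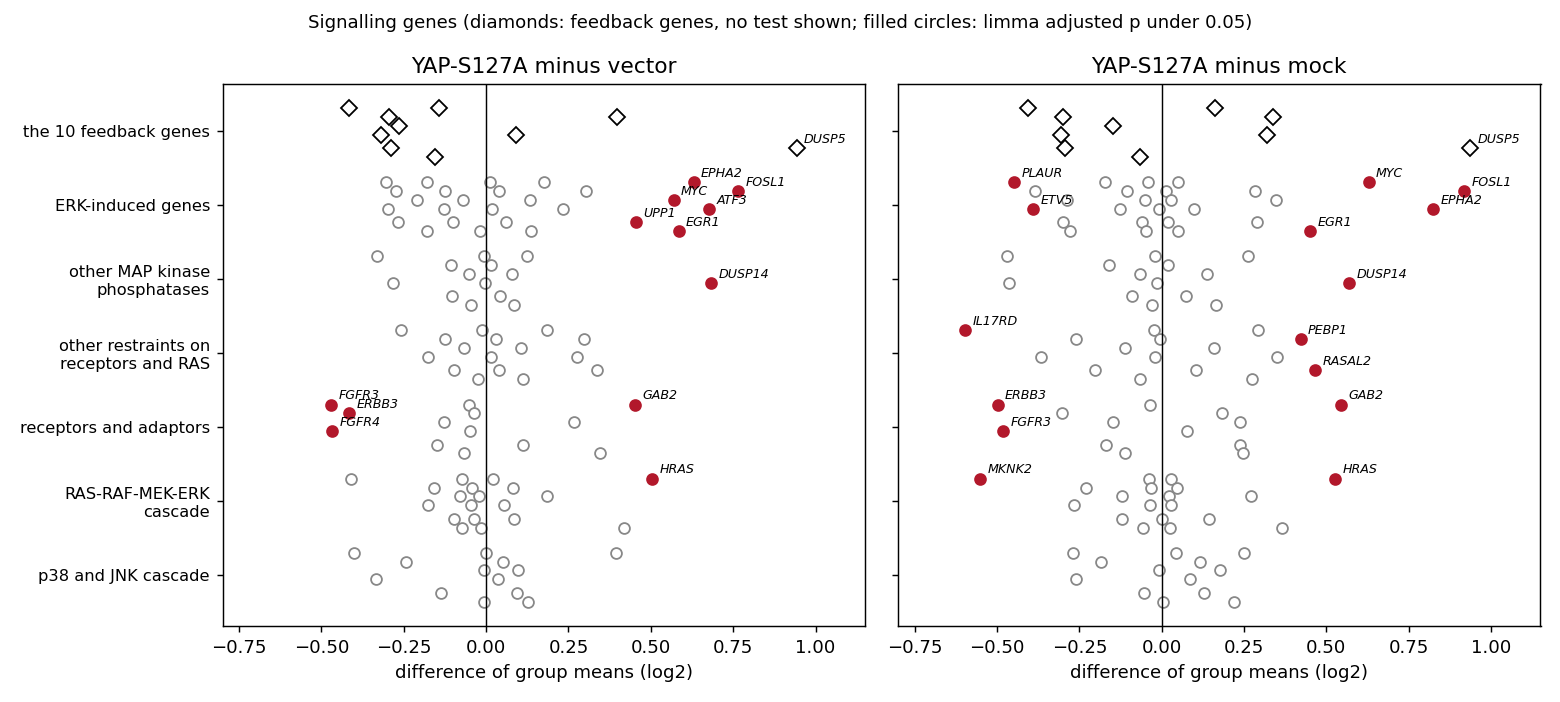
Difference of group means (log2, horizontal axis) of each tested gene in the 6 signalling lists and of the 10 feedback genes, YAP-S127A minus vector on the left and minus mock on the right, with vertical spread inside a list for legibility alone. Filled circles passed an adjusted p under 0.05 in limma, diamonds are the feedback genes, for which no test is shown, and DUSP5 lies at 0.94 in both panels beside FOSL1 at 0.77 and 0.92.

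Among the other MAP kinase phosphatases 1 of 14 rose against each control and 0 fell. It was DUSP14, an atypical phosphatase without the kinase-binding domain of the classical family, at 9.53, 9.49 and 9.55 on YAP-S127A arrays, against 9.01, 8.81 and 8.71 on vector and 8.92, 8.90 and 9.04 on mock arrays. It rose by 0.68 ± 0.10 and 0.57 ± 0.10 (limma, adjusted p = 0.000207 and 0.00166). The classical members DUSP2, DUSP7, DUSP8, DUSP9 and DUSP16 did not pass, with differences from −0.33 to 0.09 against vector and from −0.16 to 0.26 against mock.

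Other restraints on receptors and RAS showed 0 of 16 calls against vector (4 at an unadjusted p under 0.05 in limma), and 2 rose and 1 fell against mock. RASAL2, a RAS GTPase-activating protein, rose by 0.47 ± 0.10 against mock and differed by 0.34 from vector (limma, adjusted p = 0.00705 and 0.0648). PEBP1, the RAF kinase inhibitor protein, rose by 0.42 ± 0.11 against mock and differed by 0.30 from vector (limma, adjusted p = 0.0249 and 0.148). IL17RD, the receptor-like inhibitor known as SEF, changed by −0.60 ± 0.17 against mock and by 0.04 against vector (limma, adjusted p = 0.0429 and 0.945), with a mean of 10.78 ± 0.26 on vector and 11.41 ± 0.48 on mock arrays (SD, n = 3 each). Of the other 3 RASAL2 probes 1 differed by 0.33 from vector and 0.45 from mock, and the other two by 0.06 and 0.12 from vector and 0.05 and −0.04 from mock. The call of RASAL2 ended with the mean of its probes (0.23, adjusted p = 0.26) and without YAP-S127A array 2 (0.0518), and its difference from mock was 0.27 with the deposited log2 values. That of PEBP1 ended after scaling to equal medians (0.207), with only the groups compared (0.0503), and without mock array 1 (0.136) or YAP-S127A arrays 1 (0.137) or 2 (0.0551). The call of IL17RD held under 5 of 18 alternatives. Without mock array 1 its difference was −0.36 (adjusted p = 0.271), and the call also ended without mock array 2, vector array 2 or any 1 YAP-S127A array (0.0566 to 0.177) and under 7 alternatives that keep all arrays of both groups (0.0531 to 0.215). SPRED2 and SPRED3, the relatives of SPRED1, differed by −0.07 and −0.10 from vector and by −0.26 and −0.07 from mock and did not pass.

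Upstream, 1 of 13 receptor and adaptor genes rose and 3 fell against vector, and 1 rose and 2 fell against mock. FGFR3 changed by −0.47 ± 0.11 and −0.48 ± 0.11, FGFR4 by −0.47 ± 0.11 and −0.30 ± 0.11, and ERBB3 by −0.42 ± 0.11 and −0.50 ± 0.11. The adaptor GAB2 rose by 0.45 ± 0.12 and 0.55 ± 0.12 (limma, adjusted p = 0.0359 and 0.00909). The adjusted p were 0.0191 and 0.0151 for FGFR3, 0.0218 and 0.159 for FGFR4, and 0.0354 and 0.00978 for ERBB3 (limma, vector first). MET did not pass, with differences of −0.04 and 0.08. The calls of FGFR4 and ERBB3 against vector ended without any 1 of the 6 arrays compared (adjusted p up to 0.0942 and 0.187), and that of ERBB3 against mock without YAP-S127A array 1 (0.0527). The call of ERBB3 against vector also ended after scaling to equal medians (0.0638) and with the mean of its probes (−0.19, adjusted p = 0.279). Those of FGFR3 and GAB2 against vector ended without vector arrays 2 or 3 or YAP-S127A arrays 1 or 2 (up to 0.137 and 0.215). Against mock, FGFR3 lost its call without mock array 1 or YAP-S127A arrays 1 or 2 (up to 0.114) and GAB2 without YAP-S127A array 1 (0.0664). With the mean of its probes FGFR3 was not called, at −0.18 from vector and −0.24 from mock (adjusted p = 0.458 and 0.25), and its second probe differed by 0.11 and −0.01. GAB2 with the mean of its probes was not called either, at 0.32 and 0.30 (0.0742 and 0.0888). Its call against vector also ended after scaling to equal medians (0.185) and with the deposited log2 values (0.28, adjusted p = 0.0645), which gave 0.34 against mock.

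In the cascade itself 1 of 19 genes rose against vector, and 1 rose and 1 fell against mock. HRAS rose by 0.50 ± 0.12 and 0.53 ± 0.12 (limma, adjusted p = 0.0157 and 0.0106), and MKNK2, an ERK-activated kinase of the translation factor eIF4E, changed by −0.55 ± 0.12 against mock and by −0.41 ± 0.12 against vector (adjusted p = 0.00945 and 0.0661). The HRAS call against vector ended without vector array 1 (0.0789) or YAP-S127A arrays 2 (0.0713) or 3 (0.0621), that against mock without mock array 1 (0.0742) or YAP-S127A array 2 (0.0537), and both ended after scaling to equal medians (0.14 and 0.104). The MKNK2 call against mock ended without mock array 1 (0.0643) or YAP-S127A array 2 (0.0724). Of 13 p38 and JNK cascade genes 0 passed in either comparison (4 and 1 at an unadjusted p under 0.05 in limma). In all 102 signalling genes outside the family, 9 rose and 3 fell against vector, 9 rose and 6 fell against mock, and 0 passed between vector and mock (8 at an unadjusted p under 0.05 in limma). Rises were 1.76% and falls 1.7% of all genes against vector, and 2.18% and 2.07% against mock. As the lists were chosen with earlier results of these data known, no excess is read from these counts. The 3 falls against vector became 0 without vector array 2 or 3 or YAP-S127A array 1 or 2, 1 without vector array 1 and 5 without mock array 1. The 6 falls against mock became 1 without YAP-S127A array 1 or 2 and 2 without mock array 1, and the 9 rises became 5 without YAP-S127A array 2.

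The genes with the most similar profile to DUSP5 were sought by the root mean square difference between log2 levels on the 9 arrays, each gene centred on its own mean. The nearest were FLII (0.08), which encodes an actin-remodelling protein of the gelsolin family, INHBB (0.09), which encodes a subunit of activin B, CAV2 (0.09), which encodes a caveolin, PROSER2 (0.10) and ANKDD1A (0.10). On these genes the YAP-S127A means were 9.37, 7.35, 12.45, 9.23 and 8.28, against 8.55, 6.39, 11.56, 8.36 and 7.36 for vector and 8.53, 6.51, 11.50, 8.39 and 7.41 for mock, in the same order of genes. Of the other members DUSP1 lay nearest to DUSP5, at 0.29 and rank 251 among the other genes, and DUSP6 and SPRY2 farthest, at 0.62 each. The points share the 9 arrays, and the likeness is a description.

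**Figure D5:**
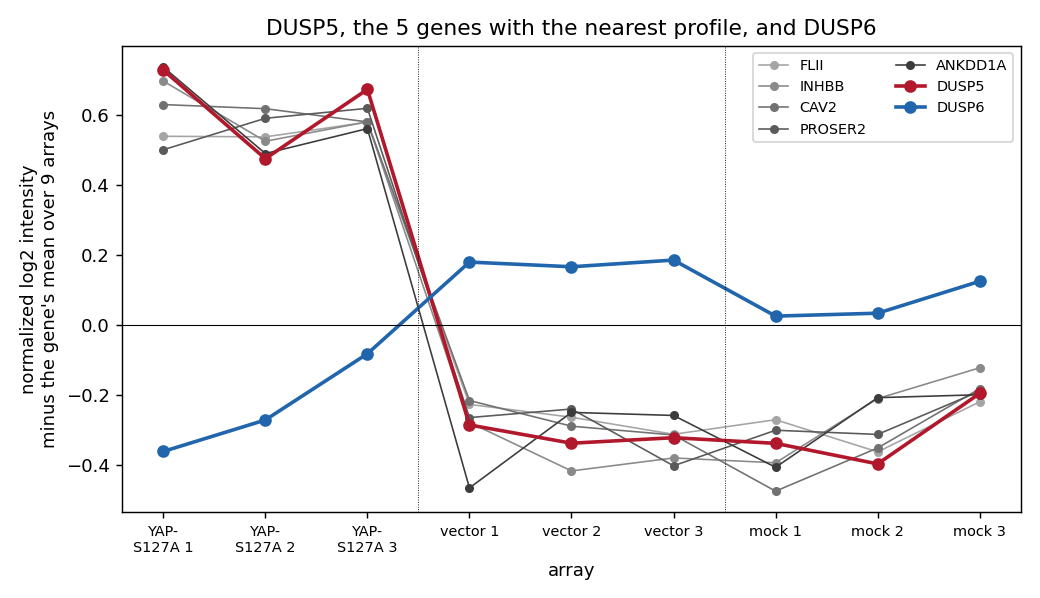
Normalized log2 intensity on each array minus the gene's mean over the 9 arrays (vertical axis), by array (horizontal axis), for DUSP5, DUSP6 and the 5 genes nearest to DUSP5. DUSP5 and its 5 neighbours lie above their mean on the YAP-S127A arrays and below it on all vector and mock arrays, and DUSP6 lies below its mean on the YAP-S127A arrays and above it on the others.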

How the data were processed

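Total RNA of 9 MKN45 samples was made into biotin-labelled cRNA and hybridised to bead arrays, per the labels' protocols. The deposited signal table held intensity values for 47231 probes on a linear scale, and its values showed no background subtraction. The deposited series matrix held log2 values whose quantiles are equal on all arrays, and served as an alternative. The submitters' processing notes name BeadStudio, without a version or settings.

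Signals were corrected with normexp (limma 3.58.1, R 4.3.3, offset 50), log2-transformed and then quantile normalized. The offset shrinks differences of dim genes, yet differences were larger than without background correction. Against vector DUSP5 was at 0.94 instead of 0.82 and DUSP10 at −0.14 instead of −0.10. Probes with a mean over the 9 arrays above the lower quartile (6.18) were kept (35423), and the brightest probe represented a gene, which gave 16180 genes tested. A probe table linked 30113 probes to 1 symbol, 8 to several and 17110 to none, and symbols were updated through gene IDs for 30074. Calls used 1 limma fit of 3 group means (6 residual and 16.4 prior degrees of freedom), with Benjamini-Hochberg adjustment over all genes tested and a threshold of 0.05. SE are those of limma. The fit was tested on simulated data with independent noise and no outlying array. It recovered 78.8% of 1.5-fold changes against vector and 81.4% against mock, and 99.4% and 99.6% of 2-fold changes. Of its calls 4.3% against vector and 5.73% against mock were false.

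The members and lists were chosen with earlier results of these data known. Named beside the members were, in each signalling list, up to 4 called genes with the lowest adjusted p, and the 5 genes nearest to DUSP5. Of 121 listed signalling genes 102 were tested. Alternatives were no background correction, the deposited log2 values, scaling to equal medians, the mean of probes, cyclic loess, no dim-probe filter, only the groups compared, trend and robust moderation, a replicate block, and leaving out each array. Deviations of same-numbered arrays from their group means correlated between −0.146 and 0.1. Those of unlike-numbered arrays correlated between −0.09 and 0.131, so these ranges cannot decide on pairing. The numbers were not taken as pairs in the main fit. The number of arrays limits the precision.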

Additional observations from a re-analysis of the deposited data

How the results depend on the processing

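The DUSP5 difference kept its sign and stayed within 1 replicate SD under 16 of 18 alternatives. It was 0.82 from vector and 0.81 from mock without background correction, and 0.73 from both with the deposited log2 values. Without single arrays it ran from 0.89 to 1.02 against vector, from 0.89 to 1.01 against mock, and from −0.05 to 0.05 between vector and mock. Without background correction and with the deposited values 4 members were called against mock, and with only the arrays of the groups compared 1. Scaling to equal medians gave 366 calls against vector, 5 signalling genes higher against vector and 1 member called in each YAP-S127A comparison. With the mean of the probes 3 signalling genes were lower against mock, with only the groups compared 5 were lower against vector, and both, like the deposited values, left 1 call between vector and mock. Without single arrays, all calls ranged from 291 to 738 against vector, 325 to 820 against mock and 1 to 54 between the controls (54 without mock array 3). Members called ranged from 1 to 3 against each control and from 0 to 1 between the controls. Signalling genes higher ranged from 6 to 12 against vector and 5 to 10 against mock, and those lower from 0 to 5, 1 to 7 and, between the controls, 0 to 1. The cause of these shifts was not tested, beside the smaller number of arrays. With the replicate block 10 signalling genes were higher and 4 lower against vector, and 3 and 2 members were called against vector and mock. In 9 of 18 comparisons an array correlated best with its own number, 6 of 6 of them between YAP-S127A and mock, a hint from the data and not the design. Dim probes, such as that of DUSP10, limit what can be seen.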
